A study of Homo sapiens with 6 samples.

Results

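The subject here is a set of 9 genes of 4 kinds, from families that include genes that cells switch on quickly and briefly after a growth or stress signal. The set holds EGR1 and the NR4A nuclear receptors NR4A1, NR4A2 and NR4A3. It also holds the immediate early response genes IER2 and IER3 and the ZFP36 family genes ZFP36, ZFP36L1 and ZFP36L2. The 9 genes were chosen by name, as families of immediate early genes, from the 58219 gene identifiers in the count files. All 9 had enough reads to be tested. The 6 libraries hold polyadenylated RNA of the human hepatocellular carcinoma cell line SNU-449, with 3 from cells that stably express wild-type Yes (Yes WT) and 3 from cells that stably express Yes with the T348I change (Yes T348I). Every library came from cells given dasatinib, a SRC and ABL family kinase inhibitor, at 100 nM, so no comparison with cells without the drug is made. Yes is a SRC family tyrosine kinase, and T348I alters its gatekeeper residue in the drug pocket. The labels do not say whether a line is 1 clone, nor whether the 3 libraries of a group are separate cultures. The p-values therefore rest on a spread among libraries that may be technical only.

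Immediate early genes are transcribed within minutes of a signal from factors already present in the cell, without new protein synthesis, and their mRNAs are short-lived. Growth factor signals reach EGR1 largely through ERK, which acts on ternary complex factors such as ELK1 bound with SRF at CArG boxes in the promoter. Calcium and cyclic AMP signals reach the NR4A genes largely through CREB and its CRTC coactivators, at cyclic AMP response elements (CRE), and through MEF2. The ZFP36 proteins end such responses: they bind AU-rich elements in the 3' UTR of short-lived mRNAs and recruit the CCR4-NOT deadenylase, which shortens the poly(A) tail. In liver, EGR1 and the NR4A receptors are known for their induction after injury and by feeding and fasting hormones.

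The promoters of EGR1 and NR4A3 are shown as examples, picked after the changes of the genes were known. Whether promoter elements bear on those changes was not tested. RefSeq promoter sequences (GRCh38.p14) were at hand for 6 of the 9 genes, in 8 windows, since NR4A1 and ZFP36L1 have a pair of listed starts each. None was at hand for NR4A2, IER3 or ZFP36L2, so these were not searched. The 250 bases before each start were searched on both strands for the CArG box, for the full CRE (TGACGTCA), for its core (TGACG, which also lies within each full CRE on both strands) and for the EGR site (GCGNGGGCG). The EGR1 stretch is chr5:138465339-138465423, plus strand, upstream of the start. The NR4A3 stretch is chr9:99821770-99821814, plus strand, also upstream of the start. Capitals mark CArG boxes and CRE cores.
EGR1: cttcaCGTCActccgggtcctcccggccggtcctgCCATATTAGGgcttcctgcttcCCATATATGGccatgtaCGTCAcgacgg
NR4A3: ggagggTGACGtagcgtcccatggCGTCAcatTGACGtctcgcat

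EGR1 had 2 CArG boxes in the window, where 1.16% of all 35116 promoters of the table hold at least 1. It also had 2 CRE cores and 1 EGR site, the latter found in 8.41% of all promoters. NR4A3 had 4 CRE cores, 3 of them in the stretch shown, and no CArG box. A CRE core is common, with at least 1 in 21.2% of promoters. ZFP36L1 had 1 full CRE before its inner start (1.65% of promoters hold one), with 1 CRE core before its outer start, and IER2 had 1 CRE core. None of the 4 motifs was found in either NR4A1 window or in that of ZFP36. For NR4A1 this covers the listed starts only, and promoters at other starts of the gene were not searched. Whether either listed start is that of the principal transcript used below was not checked. The motifs found are matches of letters, not measured binding sites.

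AU-rich sequence in the 3' UTR is shown for the ZFP36 genes because their own proteins bind it. In the principal transcript of GENCODE 29, the nonamer TTATTTATT, a preferred site of the ZFP36 proteins, was present once in the 3' UTR of each of the 3 ZFP36 family genes and in none of the other 6. Of 3' UTRs within 10% of the same length, 4.67% hold it for ZFP36, 9.58% for ZFP36L1 and 9.64% for ZFP36L2. The windows below show the nonamer in capitals, with their GRCh38 positions: ZFP36 at chr19:39409196-39409224 (plus strand), ZFP36L1 at chr14:68788077-68788105 (minus strand) and ZFP36L2 at chr2:43223448-43223476 (minus strand).
ZFP36: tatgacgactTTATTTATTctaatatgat
ZFP36L1: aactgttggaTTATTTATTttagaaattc
ZFP36L2: actatttaacTTATTTATTatcttgtgaa

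The shorter AU-rich pentamer (ATTTA) was counted in the same 3' UTRs. IER3 had 6 in 737 bases, and 2.47% of 3' UTRs of like length hold as many. ZFP36 had 5 in 713 bases (5.36% hold as many), ZFP36L1 had 8 in 1871 (14.6%) and ZFP36L2 had 5 in 1917 (40.8%). Among the transcription factor genes NR4A1 had 3 in 562 (12.2%), NR4A3 had 10 in 3024 (26.9%), NR4A2 had 4 in 1312 (32.4%) and EGR1 had 1 in 1234 (79.7%). IER2 had no pentamer in 1050 bases, while 76.4% of 3' UTRs of like length hold at least 1.

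EGR1 was higher and all 3 NR4A receptor genes were lower in Yes T348I than in Yes WT. IER3 was lower as well, ZFP36L1 was slightly higher, and IER2, ZFP36 and ZFP36L2 did not pass the test. In counts, 2 of the 9 genes were called higher (28% of all 14723 genes tested were) and 4 were called lower (27.3% of all genes were), at an edgeR quasi-likelihood adjusted p under 0.05. Thus 6 of 9 were called, beside 55.3% of all genes tested. The same 6 had no overlap between the groups, beside 59.5% of all genes. With library size as the only scaling, 5 members had no overlap. A call by itself therefore sets these genes little apart from the rest, and the sizes and directions carry the description. Their changes span 0.80 to -1.18 on the log2 scale, where the median absolute change over all genes tested was 0.23. Levels are CPM, a gene's reads relative to the library total after TMM scaling between libraries, a positive log2 fold change means higher in Yes T348I, and SE is its standard error.

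**Figure D1:**
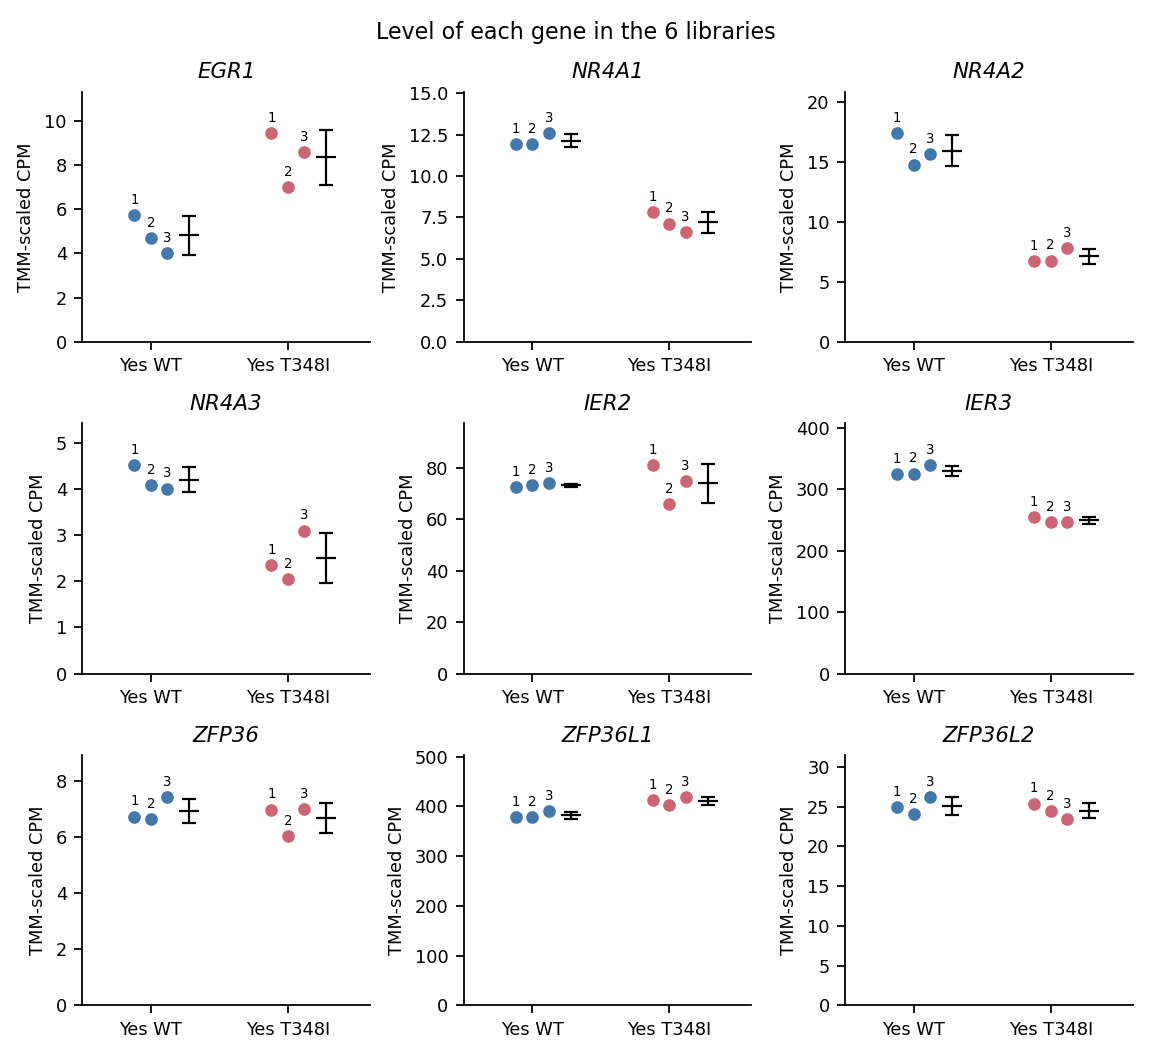
TMM-scaled CPM of each of the 9 genes (y axis, linear from 0) in the 3 Yes WT (blue) and 3 Yes T348I (red) libraries, numbered by replicate, with the mean and SD as black bars. EGR1 rises from 4.82 to 8.34 CPM on average while NR4A1, NR4A2, NR4A3 and IER3 lie lower in every Yes T348I library, and the points of IER2, ZFP36 and ZFP36L2 overlap between the groups.

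EGR1 (ENSG00000120738.7, GRCh38 chromosome 5, 138465490 to 138469315, plus strand) encodes a zinc finger transcription factor that activates growth and wound response genes. It was at 5.74, 4.71 and 4.01 CPM in Yes WT replicates 1 to 3, and at 9.43, 6.995 and 8.60 CPM in the Yes T348I ones. Every Yes T348I library was above every Yes WT library, though EGR1 was a weakly expressed gene throughout, with 60 to 184 reads per library. The means were 4.82 ± 0.871 and 8.34 ± 1.24 CPM (SD, n = 3 each). EGR1 was thus 1.74-fold higher (log2 0.80, SE 0.13, adjusted p = 2.46e-06 by edgeR). EGR1 stood nearly alone in its family. EGR2, EGR3 and EGR4 had at most 9, 1 and 3 reads in any library and were not tested.

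NAB1 and NAB2, corepressors that bind EGR proteins, were both called lower, as were 27.3% of all genes tested. NAB1 averaged 50.8 ± 2.07 CPM with wild-type Yes, against 44.3 ± 2.36 with the mutant (SD, n = 3 each; log2 -0.20, SE 0.05, adjusted p = 0.0013 by edgeR). NAB2, itself known as an EGR1 target, averaged 20.8 ± 1.22 and 17.99 ± 2.27 CPM (SD, n = 3 each; log2 -0.20, SE 0.08, adjusted p = 0.028 by edgeR). The change in EGR1 and those in its corepressors thus had opposite signs. Both corepressor changes were smaller than the median absolute log2 change over all genes tested, 0.23.

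The NR4A genes encode orphan nuclear receptors whose ligand pocket is closed, so that their activity follows their abundance and modification. NR4A2 (Nurr1; ENSG00000153234.13, chromosome 2, 156324432 to 156342348, minus strand) changed most of the 9 genes. The Yes WT replicates 1 to 3 had 17.4, 14.8 and 15.7 CPM, and the Yes T348I replicates 6.77, 6.79 and 7.83 CPM. The highest Yes T348I library lay below the lowest Yes WT library by a wide margin. Means were 15.98 ± 1.32 and 7.13 ± 0.605 CPM (SD, n = 3 each). NR4A2 was 2.26-fold lower (log2 -1.18, SE 0.10, adjusted p = 1.64e-13 by edgeR). It is the 1 gene of the 9 that was called lower by at least 2-fold, as were 3.21% of all genes tested.

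NR4A1 (Nur77; ENSG00000123358.19, chromosome 12, 52022832 to 52059507, plus strand), a regulator of apoptosis and hepatic glucose metabolism, had 11.9, 11.9 and 12.6 CPM in the Yes WT libraries. In the Yes T348I libraries it had 7.84, 7.13 and 6.63 CPM. The Yes WT libraries were close to each other, and the groups did not overlap. Means were 12.1 ± 0.383 and 7.201 ± 0.612 CPM (SD, n = 3 each), and NR4A1 was 1.67-fold lower (log2 -0.74, SE 0.10, adjusted p = 4.93e-08 by edgeR). NR4A3 (NOR1; ENSG00000119508.17, chromosome 9, 99821855 to 99866891, plus strand) was the weakest of the 3. Its Yes WT libraries had 4.52, 4.08 and 4.01 CPM and its Yes T348I libraries 2.36, 2.06 and 3.10 CPM. These values rest on 30 to 74 reads per library, and the 30 reads of Yes T348I replicate 2 have an exact Poisson 95% interval of 20.2 to 42.8, which covers counting error only. NR4A3 was 1.69-fold lower (log2 -0.76, SE 0.17, adjusted p = 2.75e-04 by edgeR), with all Yes T348I values below all Yes WT values.

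Ratios of counts within a library do not depend on how libraries are scaled. The log2 ratio of NR4A2 to NR4A1 was 0.39 ± 0.13 in Yes WT and -0.01 ± 0.23 in Yes T348I (SD, n = 3 each), and the groups did not overlap. The log2 ratio of NR4A2 to NR4A3 was 1.92 ± 0.06 and 1.53 ± 0.19 (SD, n = 3 each), again with no overlap. The ratio of NR4A1 to NR4A3 differed by only 0.01, and its values overlapped. The log2 ratio of EGR1 to each receptor was higher in every Yes T348I library than in any Yes WT library. Its log2 ratio to NR4A2 went from -1.74 ± 0.20 to 0.22 ± 0.23 (SD, n = 3 each). EGR1 had fewer reads than NR4A2 in every Yes WT library and more in every Yes T348I library. In Yes T348I replicates 2 and 3 that excess was small (102 against 99 reads and 122 against 111). The exact Poisson 95% intervals of the 2 genes overlapped there, so their order in those libraries was not resolved. In an exact permutation test over the 6 libraries (two-sided) 8 of the 10 pairs examined reached p = 0.10, the smallest that 3 against 3 allows, and 0.125 after Benjamini-Hochberg adjustment. No pair could pass a threshold of 0.05 in this design.

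**Figure D2:**
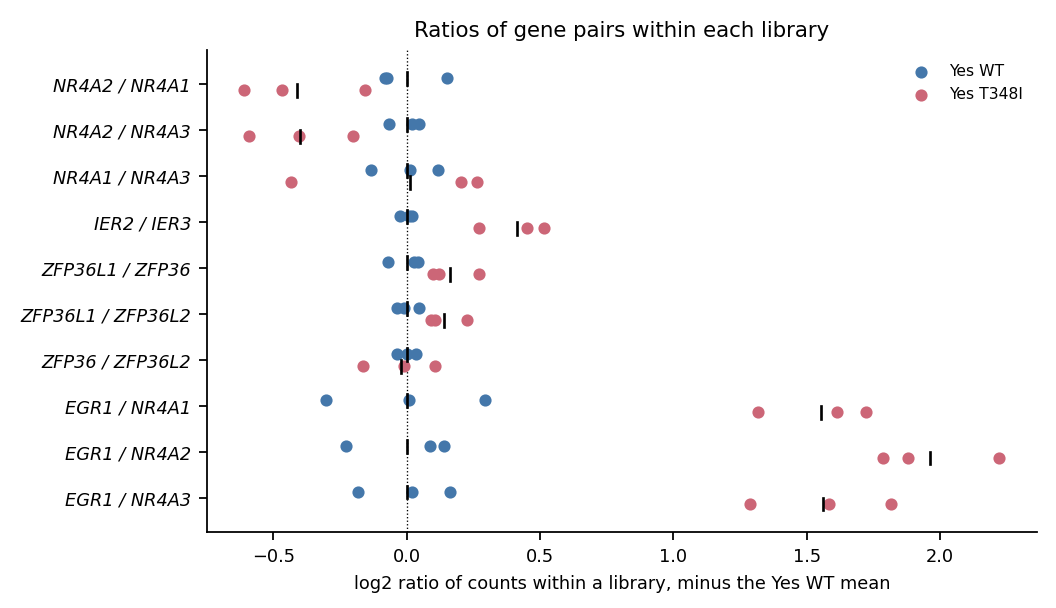
Log2 ratio of the counts of a gene pair within each library (x axis), minus the mean of the Yes WT libraries, for 10 pairs (y axis), with Yes WT in blue, Yes T348I in red and group means as black ticks. The EGR1 to NR4A ratios shift by 1.55 to 1.96, those of NR4A2 to the other receptors by -0.41 and -0.40, and the groups overlap for NR4A1 to NR4A3 and ZFP36 to ZFP36L2.

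IER3 (IEX-1; ENSG00000137331.11, chromosome 6, 30743199 to 30744554, minus strand), a regulator of cell survival under stress, was among the most abundant of the 9 genes. Replicates 1 to 3 had 325, 325 and 339 CPM with wild-type Yes, and 255, 246 and 246 CPM with the mutant. The libraries of a group lay close together, and the groups were far apart for that spread. Means were 329.9 ± 7.98 and 249.1 ± 5.35 CPM (SD, n = 3 each). IER3 was 1.32-fold lower (log2 -0.40, SE 0.03, adjusted p = 6.44e-14 by edgeR). It had a smaller change than the NR4A genes and a lower SE, since it rests on 3492 to 5323 reads per library.

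IER2 (ENSG00000160888.6, chromosome 19, 13150415 to 13154908, plus strand) encodes a nuclear protein of the immediate early response that is unrelated in sequence to IER3. Its levels were 72.6, 73.2 and 73.9 CPM with wild-type Yes, and 81.0, 65.9 and 74.7 CPM with the mutant. The Yes WT libraries were nearly equal, while the Yes T348I libraries lay on both sides of them. The difference in IER2 did not pass the test (edgeR adjusted p = 0.75), with a 95% interval of -0.08 to 0.12 for the log2 fold change. The log2 ratio of IER2 to IER3 was -2.17 ± 0.02 and -1.76 ± 0.13 (SD, n = 3 each), with no overlap. Their namesakes IER5 and IER5L, named here after their values were seen, went separate ways. IER5 averaged 44.8 ± 0.885 and 45.0 ± 2.59 CPM, and IER5L averaged 121 ± 6.17 and 83.5 ± 8.64 CPM (SD, n = 3 each; log2 -0.52, SE 0.05, adjusted p = 3.14e-12 by edgeR).

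In the ZFP36 family 1 gene passed the test. ZFP36L1 (BRF1; ENSG00000185650.9, chromosome 14, 68787660 to 68796253, minus strand) had 378, 378 and 390.4 CPM with wild-type Yes and 413, 402.7 and 419 CPM with the mutant. After TMM scaling, all Yes T348I libraries were above all Yes WT libraries, by a small margin. ZFP36L1 was 1.08-fold higher (log2 0.11, SE 0.03, adjusted p = 0.0043 by edgeR). Scaling by upper quartile factors ended that call (0.07, adjusted p = 0.072), as did library size only (0.07, adjusted p = 0.070), and ZFP36L1 did not exceed a minimum change of 1.2-fold (adjusted p = 1).

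ZFP36 (tristetraprolin; ENSG00000128016.5, chromosome 19, 39406813 to 39409412, plus strand), the family member best known as an immediate early gene, had 6.72, 6.64 and 7.42 CPM with wild-type Yes and 6.97, 6.04 and 6.98 CPM with the mutant. Its 95% interval for the log2 fold change was -0.29 to 0.19 (edgeR adjusted p = 0.74), so a change of the size seen in EGR1 or the NR4A genes lies outside it. ZFP36L2 (BRF2; ENSG00000152518.7, chromosome 2, 43222402 to 43226609, minus strand) had 24.9, 24.0 and 26.2 CPM with wild-type Yes and 25.4, 24.5 and 23.5 CPM with the mutant, with an interval of -0.16 to 0.10 (edgeR adjusted p = 0.71). The values of both genes overlapped between the groups. Within libraries, the log2 ratio of ZFP36L1 to ZFP36 went from 5.79 ± 0.06 to 5.95 ± 0.09 and that of ZFP36L1 to ZFP36L2 from 3.93 ± 0.04 to 4.07 ± 0.07 (SD, n = 3 each), both with no overlap.

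**Figure D3:**
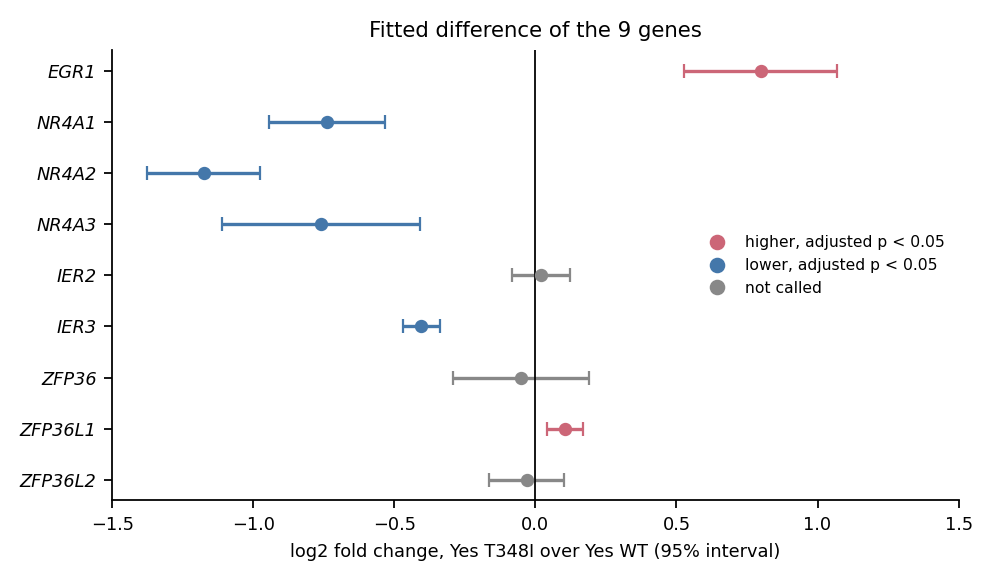
Log2 fold change of each of the 9 genes, Yes T348I over Yes WT (x axis), with its 95% interval from the edgeR fit, in red where called higher, blue where called lower and grey where not called. EGR1 at 0.80 is the largest rise and NR4A2 at -1.18 the largest fall, and the intervals of IER2, ZFP36 and ZFP36L2 include 0.

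Levels of different genes were compared per kilobase of merged exons (RPKM). IER3 was the highest in Yes WT, at 243 ± 5.88 RPKM (SD, n = 3), followed by ZFP36L1 at 74.1 ± 1.37, IER2 at 23.8 ± 0.213 and ZFP36L2 at 6.78 ± 0.299. NR4A2 at 4.03 ± 0.333, ZFP36 at 3.45 ± 0.214, NR4A1 at 1.66 ± 0.0525, EGR1 at 1.54 ± 0.278 and NR4A3 at 0.666 ± 0.0437 RPKM came after them (SD, n = 3 each). NR4A1 and EGR1 overlapped in Yes WT and their order was not resolved. The top 4 and NR4A3 at the bottom kept their places in Yes T348I. Between them came ZFP36 at 3.31 ± 0.270, EGR1 at 2.66 ± 0.395, NR4A2 at 1.797 ± 0.152 and NR4A1 at 0.987 ± 0.0838 RPKM (SD, n = 3 each). The place of NR4A1 depends on the length used: per principal transcript it was at 4.53 ± 0.143 RPKM in Yes WT, beside 4.603 ± 0.381 for NR4A2, and at 2.69 ± 0.228 in Yes T348I, beside 2.66 for EGR1.

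ZFP36L1 thus made up most of its family. Its share of the summed RPKM of the 3 genes was 87.9% ± 0.342 in Yes WT and 88.9% ± 0.336 in Yes T348I (SD, n = 3 each), with ZFP36 at 4.09% ± 0.161 and 3.69% ± 0.234. The NR4A family was led by NR4A2, with 63.3% ± 1.61 in Yes WT and 56.4% ± 2.23 in Yes T348I (SD, n = 3 each). That lead depends on the length used. NR4A1 has 7295 bases of merged exons and a principal transcript of 2678 bases, and with principal transcripts NR4A2 had 46.6% ± 2.01 beside 45.9% ± 2.23 for NR4A1 in Yes WT, and 39.6% ± 2.97 beside 51.9% ± 4.42 in Yes T348I.

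Some reads of these loci could belong to genes on the other strand. AC011446.2 shares 946 exon bases with IER2 on the opposite strand and had 30 to 39 reads per library, and IER3-AS1 shares 359 with IER3 and had 5 to 21. AC025259.3, opposite NR4A1, had at most 1 read. All these are far below the strand-specific counts of IER2, IER3 and NR4A1.

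The genes whose profile over the 6 libraries lay closest to that of a member (smallest root mean square distance of centred log2 CPM, mean of at least 10 CPM) are given as a description. For NR4A1 this was CTSF, a lysosomal protease gene, at a distance of 0.03, which went from 34.7 to 20.5 CPM. For NR4A2 it was CSAD, a taurine synthesis gene, at a distance of 0.06, which went from 14.8 to 6.40 CPM. The closest to NR4A3 and IER3 were ASAP3 and FRMD8. The closest to EGR1, the transcription factor gene FOXD1, was at a distance of 0.14. Counting error adds to such distances and is larger for members with few reads, such as EGR1 and NR4A3 (0.096), than for IER3 (0.0044). With 2 groups of 3 libraries, such likeness mostly reflects a similar difference between the groups.

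Other genes of the pathways were taken from 8 lists with 108 genes, of which 100 were tested. Of these, 43 were called higher and 25 lower, beside 28% and 27.3% of all genes, and their median log2 fold change was 0.09 beside -0.01 over all genes tested. Of 26 other immediate early and early stress genes, 13 were called higher and 4 lower (median 0.25). That is 65.4% called, beside 55.3% of all genes tested. The polo-like kinase gene PLK2 averaged 183 ± 1.69 and 365 ± 2.94 CPM (SD, n = 3 each; log2 1.0008, SE 0.03, adjusted p = 5.23e-27 by edgeR). GADD45B, a stress sensor gene, averaged 16.3 ± 0.609 and 40.9 ± 2.25 CPM (log2 1.33, SE 0.07), and the kinase gene SGK1 81.9 ± 0.301 and 142 ± 4.05 CPM (log2 0.79, SE 0.04). All 3 were called higher. NFKBIZ, which encodes a nuclear regulator of NF-kB, was called lower like the NR4A genes, with means of 62.8 ± 2.58 and 28.9 ± 0.660 CPM (log2 -1.12, SE 0.05, adjusted p = 1.99e-21 by edgeR). FOS, the prototype of the class, was near the limit of the data at 1.97 ± 0.0933 and 1.66 ± 0.163 CPM and was not called (edgeR adjusted p = 0.37). It is named here after its values were seen.

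Among 15 genes of the ERK cascade and of its nuclear kinases and factors, 6 were called higher and 4 lower (median log2 fold change 0.04). That is 66.7% called, beside 55.3% of all genes tested. SRF was called higher, with means of 51.8 ± 2.97 and 73.2 ± 2.45 CPM (SD, n = 3 each; log2 0.50, SE 0.05), as was the ternary complex factor gene ELK3, with 100.3 ± 3.94 and 130.4 ± 1.81 CPM (log2 0.38, SE 0.04). The kinase genes RPS6KA4 (MSK2) and RPS6KA3 (RSK2) moved apart, by 0.40 (SE 0.05) and -0.23 (SE 0.04). Of 11 tested genes around CREB, CRTC and MEF2, 2 were called higher and 5 lower (63.6% called, median -0.10). CRTC1, a CREB coactivator gene, averaged 17.2 ± 0.662 and 11.1 ± 0.310 CPM (SD, n = 3 each; log2 -0.63, SE 0.08, adjusted p = 2.82e-08 by edgeR). The other calls named by lowest p were MEF2D at -0.32 (SE 0.05), EP300 at -0.26 (SE 0.04) and ATF1 at 0.37 (SE 0.07) on the log2 scale. MEF2C had no read in any library.

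Of the NR4A partner and corepressor genes, 2 of 5 tested were called higher and 2 lower (median -0.15). That is 80% called, beside 55.3% of all genes tested. RXRB, which encodes a heterodimer partner of NR4A1 and NR4A2, was called lower, with means of 42.1 ± 0.366 and 32.2 ± 2.43 CPM (SD, n = 3 each; log2 -0.38, SE 0.06). So was the corepressor gene NRIP1, with 222 ± 7.45 and 154 ± 2.92 CPM (log2 -0.53, SE 0.04). The corepressor gene NCOR1 was called higher, at 0.11 (SE 0.04, adjusted p = 0.012 by edgeR), though its values overlapped between the groups. RXRG had no read.

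Of the decay machinery that the ZFP36 proteins recruit, 4 of 16 CCR4-NOT and decapping genes were called higher and 3 lower (median 0.02). That is 43.8% called, beside 55.3% of all genes tested. CNOT9 and EDC4 were called higher at 0.35 (SE 0.04) and 0.18 (SE 0.04), and the exonuclease gene XRN1 and the decapping enzyme gene DCP2 lower at -0.39 (SE 0.06) and -0.28 (SE 0.06). Another list held 8 genes for other AU-rich element binding proteins and for the p38 and MK2 kinases, which phosphorylate and inhibit tristetraprolin. Of these, 7 were called higher and 1 lower (median 0.15). That is 100% called, beside 55.3% of all genes tested. HNRNPD (AUF1) averaged 276 ± 8.28 and 377 ± 17.2 CPM (log2 0.45, SE 0.03), and ELAVL1 (HuR) 119 ± 5.05 and 149.5 ± 1.74 CPM (log2 0.33, SE 0.04; SD, n = 3 each). KHSRP and TIAL1 were also called higher, at 0.20 (SE 0.03) and 0.16 (SE 0.04).

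Reported mRNA targets of the ZFP36 family went both ways, with 9 of 17 tested called higher and 4 lower (median log2 fold change 0.26). That is 76.5% called, beside 55.3% of all genes tested. The cyclin gene CCND1 and the apoptosis inhibitor gene BIRC3 were called higher, at 1.02 (SE 0.03) and 0.92 (SE 0.05), as was the cytokine gene LIF at 0.36 (SE 0.03). HIF1A, the hypoxia factor gene, was called lower at -0.35 (SE 0.03). PTGS2, a cyclooxygenase gene, had the lowest log2 fold change of the targets tested. It averaged 1.05 ± 0.144 and 0.266 ± 0.114 CPM (SD, n = 3 each; log2 -1.93, SE 0.41, adjusted p = 9.08e-05 by edgeR). It rests on at most 18 reads per library and is named after its values were seen. TNF and CSF2 had at most 4 and 7 reads in any library, and IL1A had none.

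**Figure D4:**
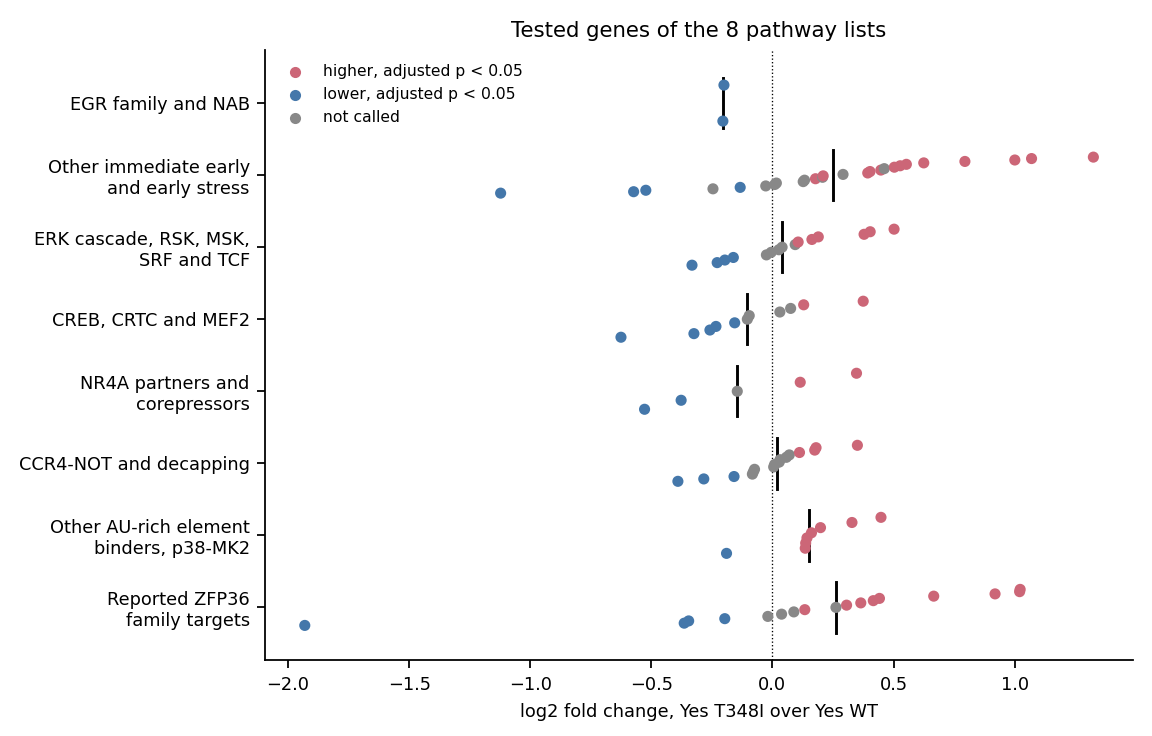
Log2 fold change, Yes T348I over Yes WT (x axis), of the 100 tested genes in 8 pathway lists (y axis), 1 point a gene, in red where called higher, blue where called lower and grey where not called, with list medians as black ticks. List medians run from -0.20 (other EGR family genes and NAB corepressors) to 0.26 (reported ZFP36 family targets). The median of the other immediate early and early stress genes is 0.25, and that of the CREB, CRTC and MEF2 genes is -0.10.

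The libraries were of similar depth, with 14360137 to 19608763 reads on genes. Yes T348I replicates 1 and 2 differed most within a group (chi-square per degree of freedom 5.27, beside 1.48 to 2.32 for the other pairs). The 6 calls among the members held without each library in turn, and the log2 fold change of EGR1 ranged from 0.68 to 0.95 over the 14 alternatives run. Hepatocyte markers were nearly absent, with a sum over 7 genes of 3.32 to 4.34 CPM per library in Yes WT, 1.51 to 3.33 CPM in Yes T348I and at most 10 reads of ALB, so the label of liver tissue is not matched by hepatocyte transcripts. Of the 2 tested, TF was called lower (log2 -1.37, SE 0.30). Leukocyte markers summed to 2.42 to 3.08 CPM in Yes WT and 0.635 to 1.33 CPM in Yes T348I, with CD3E and TYROBP at 0, while CD14 averaged 2.43 ± 0.279 and 0.721 ± 0.467 CPM (SD, n = 3 each) and was called lower. Biliary markers summed to 397 to 428 CPM in Yes WT and 713 to 799 CPM in Yes T348I, nearly all from KRT7 and SOX9, both called higher. The other 3 biliary markers were near 0, with at most 17 reads of KRT19, 11 of EPCAM and 1 of CFTR in any library. Stellate and fibroblast markers summed to 142 to 155 and 152 to 165 CPM, mostly RGS5, which was called higher (132 ± 6.26 and 145 ± 6.04 CPM; SD, n = 3 each), while ACTA2 was called lower (log2 -0.56, SE 0.14). Endothelial markers summed to 1.14 to 1.53 CPM in Yes WT and 0.480 to 0.564 CPM in Yes T348I, with TEK at 0 and PECAM1, at most 16 reads per library, called lower (log2 -2.0001, SE 0.48). Heat shock genes, which respond to stress and handling, summed to 3227 to 3325 CPM in Yes WT and 3643 to 3803 CPM in Yes T348I. Most of that sum was HSPA8, with means of 2302 ± 42.0 and 2809 ± 96.0 CPM (SD, n = 3 each). Of the 6 genes, 2 were called higher (HSPA8 and DNAJB1) and 2 lower (HSPA1B and HSPH1). Over all genes tested, 28% were called higher and 27.3% lower. HSPA1A and HSPB1 were not called. The part of all these in the differences of the immediate early genes was not tested. In RNA from many cells, fewer cells with a transcript and less of it per cell cannot be told apart.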

How the data were processed

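The authors deposited raw read counts per Ensembl gene, 1 file per library, unnormalized, per the labels' stranded poly(A) kit and the files' layout. Tools in the submitters' processing notes, with no role stated, are STAR 2.5.1b, Trimmomatic 0.35 and CASAVA 1.8.2, on GRCh38. No source used here names the annotation release. Multi-mapped reads stand in a summary line of the deposited files and in no gene. Counts of the reverse strand were used (the forward total was 6.13% to 6.59% of the reverse total). The summary lines were left out: reads on no gene made up 6.37% to 7.87%, and reads on more than 1 gene 3.11% to 3.15%.

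A symbol was found for 41805 of 58219 identifiers, and positions and lengths came from GENCODE 29. With edgeR 4.0.16 (R 4.3.3), filterByExpr at a minimum count of 10 chose the genes, TMM scaled the libraries and genes were tested by the quasi-likelihood F-test, with Benjamini-Hochberg adjustment over all 14723 genes tested. SE is the absolute log2 fold change over the square root of F, and intervals are 95%. Alternatives were other scalings, no filter, DESeq2 1.42.0, a replicate block, unstranded counts, a minimum change of 1.2-fold and leaving out each library. The principal transcript length and the ratios of gene pairs were added after seeing the data. Members and lists were chosen with earlier results of these data known. The genes named are all 9 members, up to 4 genes per list with the lowest adjusted p, untested genes that define a list, the gene most like a member, and a few marked as exceptions. Some genes that this rule or the marker lists would name are not reported here.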

Additional observations from a re-analysis of the deposited data

How the results depend on the processing

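EGR1, NR4A1, NR4A2, NR4A3 and IER3 kept direction and call in all 14 alternatives, with log2 fold changes of -1.23 to -1.11 for NR4A2 and adjusted p of at most 0.0051 for NR4A3, the highest of the 5. ZFP36L1 was lost under upper quartile factors, library size only and a minimum change of 1.2-fold, which each left 1 member called higher instead of 2. Scaling by upper quartile or library size shifts all genes downwards (median -0.05). The 3 uncalled members have no stable sign: upper quartile factors gave -0.020 for IER2, library size only -0.017 and unstranded counts -0.0080. Leaving out each library gave -0.050 (Yes T348I replicate 1) to 0.098 for IER2, and -0.083 to 0.013 for ZFP36, above 0 at 0.0019 without Yes WT replicate 3 and at 0.013 if Yes T348I replicate 2 was dropped. For ZFP36L2 it gave -0.059 to 0.0029, with 0.0029 lacking Yes WT replicate 3 and 0.0020 lacking Yes T348I replicate 3.

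The test against 1.2-fold called 1394 genes higher and 1835 lower over the whole table, and 22 and 10 on the lists, since it asks for more. With the replicate block 2 members were higher and 4 lower, with 4054 and 3936 genes called. The deviations of same-numbered libraries from their group means had correlations of -0.03 to 0.0014. This cannot decide whether such libraries were prepared together, since most of a deviation may be counting error. Family shares move with length and strand. With principal transcript lengths NR4A2 had 46.6% and 39.6% in Yes WT and Yes T348I, ZFP36L1 had 91.8% and 92.6%, and IER3 had 91.4% beside IER2 in Yes WT. With unstranded counts, which assign no read on exons of overlapping genes of either strand, NR4A2 had 68.6% and 61.5% and IER3 94.4% and 92.9%. Of the 9 genes, depth limits NR4A3 most, with at most 74 reads per library.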
